A study of Rattus norvegicus with 4 samples.

Results

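Gene expression in skeletal muscle of both SPORTS rats was compared with that of both wild-type (WT) muscle samples, 2 arrays against 2, which together are all 4 arrays of the study. The animals were male rats aged 15 weeks. SPORTS is a hyperactive mutant rat on a Wistar background, and the WT rats were Wistar too. One SPORTS array came from an exercised rat and the other from a sedentary rat. The study's design text calls the WT rats sedentary, whereas their sample labels give no exercise state. The labels name neither the muscle, the mutated gene, the kind of exercise nor the hour at which tissue was taken. Each SPORTS condition is 1 array. Both WT titles carry an identical first number, so 1 animal may have given both arrays, and the spread between them may be technical. The exercised SPORTS array differs from every WT array in genotype and in exercise, which cannot be told apart on that array.

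The genes described are those for which both SPORTS arrays lay on the same side of both WT arrays. Levels are given as log2 of the processed signal relative to the array's own 75th percentile, so that 0 is the 75th percentile and a step of 1 is a factor of 2. In each list of values the WT arrays come first, then the exercised SPORTS array, then the sedentary one. A difference is the SPORTS mean minus the WT mean on that log2 scale, with the standard error (SE) of the fit (limma). The gap is the distance between the nearest arrays of the 2 genotypes. A level of one gene is not compared with that of another, since probes differ in brightness.

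Of 13326 genes tested, 5819 (43.7%) had both SPORTS arrays on the same side, 2849 of them above WT (21.4%) and 2970 below (22.3%). A gap of at least 2-fold was found for 256 genes (1.92%), 86 above (0.645%) and 170 below (1.28%), and 167 of the 256 carry a gene symbol. In 34 of the 86 neither WT array was well above background, and in 69 of the 170 neither SPORTS array was. With the dim arrays raised to the lowest signal well above background, the difference was at least 2-fold for 20 of the 34 and 34 of the 69. After adjustment over all genes, limma called 0 genes. At an unadjusted p under 0.05 it gave 982 genes, 239 of them among the 256. The lowest adjusted p was 0.132. With 2 arrays against 2, an exact permutation test cannot go below 0.333. The values below are therefore differences between these 4 arrays, and none passed the threshold.

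The SPORTS arrays also differed from each other. The median absolute difference between them was 0.44 over all genes tested, against 0.07 between the WT arrays, and they were at least 2-fold apart for 2920 genes. Among the 86 genes at least 2-fold above WT, the sedentary array lay nearer to WT for 49 genes and the exercised array for 37. Among the 170 below WT, the sedentary array lay nearer for 120 genes and the exercised array for 50. The median difference from WT of the 170 was -2.39 on the exercised array and -1.59 on the sedentary array. For the 86 it was 2.0 and 1.75. All 11 of the muscle identity genes measured, such as those for muscle creatine kinase and titin, were well above background on all 4 arrays.

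**Figure D1:**
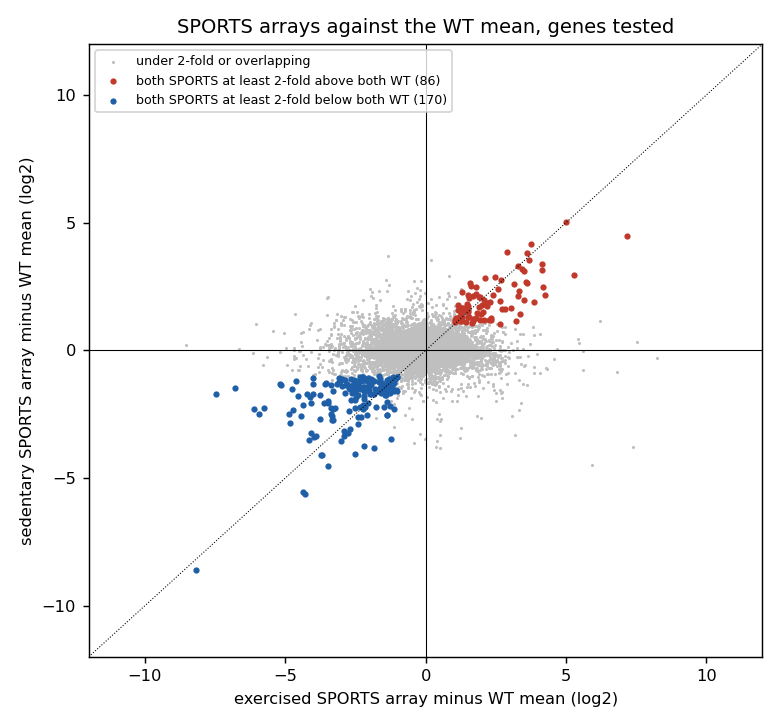
Difference from the WT mean on the exercised SPORTS array (horizontal axis) against the sedentary SPORTS array (vertical axis), both in log2 units, for each gene tested, with the 86 genes at least 2-fold above and the 170 at least 2-fold below both WT arrays in colour. The axes share the same WT arrays, so the slope of the cloud is not a result. The 170 lower genes spread further along the exercised axis, with a median of -2.39 against -1.59.

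The circadian clock of muscle is a feedback loop. BMAL1 with CLOCK or its paralog NPAS2 drives genes with an E-box in their promoter, among them the PER and CRY repressors, the repressor CIART and the output factors DBP and TEF, which act through D-box elements. NFIL3 acts against DBP and TEF at those elements, and nuclear receptors of the ROR and REV-ERB families act on Bmal1 itself.

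Of 17 clock genes measured, 3 lay at least 2-fold above WT on both SPORTS arrays (Bmal1, Npas2 and Nfil3) and 4 at least 2-fold below (Ciart, Dbp, Per2 and Tef). Together they are 41.2% of the list, beside 1.92% over all genes. The list's median difference was -0.06, beside 0.00 over all genes, and its sign turned with scaling by the median. Bmal1 read -2.04 and -2.39 on the WT arrays, then 1.94 in the exercised and 0.92 in the sedentary SPORTS rat, a difference of 3.65 ± 0.43 (SE, limma, adjusted p = 0.322). Npas2 read -3.11 and -3.35, then -1.42 and -1.02, a difference of 2.01 ± 0.22. Its second probe, above background on all 4 arrays, differed by 0.17 only, so the 2-fold gap rests on 1 of its 2 probes. Neither gene overlapped between genotypes. For Bmal1 the exercised array was the higher one, and for Npas2 the sedentary array. Nfil3 read -1.64 and -1.42 on WT, and its SPORTS values of 2.34 and 0.37 were themselves nearly 4-fold apart.

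On the lower side, Dbp read 6.07 and 6.17 on the WT arrays and 2.73 and 3.85 on the SPORTS arrays, a difference of -2.83 ± 0.45 (SE, limma, adjusted p = 0.429). Per2, a repressor of the loop, read -0.85 and -0.63, then -2.34 and -2.40. Tef read 3.25 and 3.24, then 2.0 and 1.59. For Per2 the SPORTS arrays were nearly equal, and for Tef the sedentary array was the lower one. Ciart read -2.62 on both WT arrays and was not above background on either SPORTS array, so that it was at least 1.99-fold lower.

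Clock genes short of a 2-fold gap were mixed. Cry1 read 0.11 and 0.22 on WT, 1.13 on the exercised and 0.52 on the sedentary array. Nr1d2, which encodes REV-ERB beta, read -2.71 and -2.80 on WT and -3.52 and -3.47 on SPORTS. Clock itself overlapped, with -3.26 and -4.25 on WT and -2.81 and -3.38 on SPORTS. In 2 further genes of the loop the SPORTS arrays lay on opposite sides of WT. Per3 read -2.31 and -2.42 on WT, then -0.13 and -3.61, and Nr1d1, which encodes REV-ERB alpha, read 0.40 and 0.24, then 0.92 and -0.42.

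Promoter windows of the 7 clock genes, all of which matched a RefSeq promoter (GRCr8, 250 bases before to 50 after the start), are shown where they hold an element of the loop, with matches in capitals. The letters searched on both strands were CACGTG for the E-box, TTATGTAA for the D-box and AGGTCA for the nuclear receptor element. Of all 33469 promoters of that length in the table, 6.42% hold the E-box, 0.893% the D-box and 16.2% AGGTCA. Among the 7 clock genes, 2 hold the E-box, 1 the D-box and 1 AGGTCA.

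Ciart, chr2:186112247-186112364, minus strand: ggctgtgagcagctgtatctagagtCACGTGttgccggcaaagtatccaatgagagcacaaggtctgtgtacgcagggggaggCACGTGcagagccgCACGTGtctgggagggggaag
Tef, chr7:115206604-115206659, plus strand: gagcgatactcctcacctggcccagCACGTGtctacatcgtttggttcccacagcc
Per2, chr9:99497153-99497210, minus strand: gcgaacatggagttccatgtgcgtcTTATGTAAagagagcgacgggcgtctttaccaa
Bmal1, chr1:176766288-176766327, plus strand: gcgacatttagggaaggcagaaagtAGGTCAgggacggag

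The Ciart window holds 3 E-boxes, which start 93, 35 and 21 bases before the transcription start. The Tef E-box starts 198 bases before it, the D-box of Per2 192 bases and the AGGTCA of Bmal1 15 bases. Both genes with CACGTG were lower on the SPORTS arrays, and so were Dbp and Per2, which hold no CACGTG in the bases searched. Other forms of the E-box were not searched. A match describes the letters of the window only.

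Interferon-induced genes are the antiviral and antigen-handling genes that type I and type II interferons switch on through the STAT and IRF factors. Of 25 listed genes measured, 6 lay at least 2-fold above WT on both SPORTS arrays and 0 at least 2-fold below. They are 24% of the list, beside 1.92% over all genes either way. The list does not hold Cxcl9, a gene induced by interferon gamma that lay at least 2-fold below WT. The one-sided count thus holds for the listed genes only. By any gap, 14 lay above (56% of the list, beside 21.4% over all genes), 0 below, and 11 overlapped. The list's median difference from WT was 0.20 on the exercised array and 0.76 on the sedentary array.

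Irf7, the IRF that amplifies the type I response, read -0.13 and -0.11 on the WT arrays, then 2.0 in the exercised and 2.70 in the sedentary SPORTS rat, a difference of 2.48 ± 0.30 (SE, limma, adjusted p = 0.322). Isg15, a ubiquitin-like modifier, read -1.52 and -1.37 on WT and 0.36 and 1.03 on SPORTS. Mx1, an antiviral GTPase, read -1.52 and -1.19, then 0.28 and 1.16. In all 3 genes the sedentary SPORTS array was the highest of the 4. Rsad2, which encodes viperin, read -2.48 and -2.20, then -0.87 and -0.66. Bst2, which encodes tetherin, read 1.75 and 1.69, then 2.88 and 3.48. The immunity-related GTPase gene Irgm was above background on the SPORTS arrays only, at -1.47 and -2.0, and was at least 3.70-fold higher there. Oas1a, an oligoadenylate synthetase gene just short of the 2-fold gap, read -1.44 and -1.70 on WT and -0.64 and -0.48 on SPORTS. None of the 17 antigen presentation genes measured was 2-fold apart, beside 1.92% over all genes. By a smaller gap 6 lay above WT (35.3%, beside 21.4% over all genes) and 0 below, beside 22.3%. The median difference of the 17 was -0.13 on the exercised and 0.64 on the sedentary array. Macrophage and monocyte markers went the same ways, with medians of -1.30 and 1.07 over 12 genes, and their part in the immune gene values was not tested.

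The promoters of the interferon-induced genes were searched for the core of the interferon-stimulated element, a pair of GAAA tetramers with any 2 bases between them, on both strands. The core is in 3.92% of all promoters in the table, and in 4 of the 5 of these 6 genes that matched a promoter, shown here with the core in capitals.

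Irf7, chr1:205800058-205800117, minus strand: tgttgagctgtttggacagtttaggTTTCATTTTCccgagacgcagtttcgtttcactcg
Irgm, chr10:33742579-33742637, minus strand: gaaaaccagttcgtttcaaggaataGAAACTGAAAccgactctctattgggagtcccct
Rsad2, chr6:48788233-48788292, minus strand: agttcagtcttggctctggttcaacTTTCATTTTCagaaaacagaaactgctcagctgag
Bst2, chr16:18255058-18255123, minus strand: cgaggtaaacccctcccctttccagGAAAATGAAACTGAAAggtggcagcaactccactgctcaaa

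Bst2 holds 2 overlapping cores, 131 and 125 bases before the start. The core starts 69 bases before the start in Irf7, 34 in Irgm and 147 in Rsad2, and in Irf7 and Rsad2 it reads on the opposite strand. The promoter of Mx1 holds no such letters in this window. None of the 5 holds the E-box or the D-box searched above. AGGTCA is in 1 of the 5, Bst2, 218 bases before the start, beside 16.2% of all promoters. The interferon list was chosen with earlier results of these data known, so the share of promoters is a description.

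Genes of fatty acid uptake and oxidation lay mostly below WT. CD36 carries long-chain fatty acids into muscle, DGAT2 makes triglyceride from them, and hormone-sensitive lipase, encoded by Lipe, releases them again. Of 40 genes of fatty acid uptake and oxidation measured, 26 lay below WT on both SPORTS arrays by any gap (65%, beside 22.3% over all genes), 1 above and 13 overlapped. Their median difference from WT was -0.86 on the exercised array and -0.20 on the sedentary array. Of the 40, 2 (5%) were at least 2-fold lower, Cd36 among them, beside 1.28% over all genes. Of 20 triglyceride genes, 10 lay below by any gap (50%, beside 22.3% over all genes) and 3 above (15%, beside 21.4%). Of the 20, 2 (10%, beside 1.28%), Dgat2 and Lipe, were at least 2-fold lower.

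Dgat2 read 3.20 and 3.32 on the WT arrays, then 0.87 in the exercised and 0.67 in the sedentary SPORTS rat, a difference of -2.49 ± 0.16 (SE, limma, adjusted p = 0.261). The sedentary array was the lowest of the 4. Retsat, which encodes retinol saturase, read 1.66 and 1.64, then -1.07 and -0.71. Lipe read -2.48 and -2.52 on WT and was not above background on either SPORTS array, so that it was at least 2.16-fold lower. Cd36 read 5.56 and 5.72, then 3.21 and 4.16, and its neighbour Cd36l1 read 3.89 and 3.91, then 1.31 and 2.36. Both were lowest on the exercised array. The Cd36 genes are related in sequence, and the signals of their probes cannot be told apart here. Acad9, an acyl-CoA dehydrogenase that also assembles respiratory complex I, read 4.49 and 4.58 on WT and 1.06 and 2.47 on SPORTS. Slc25a42, which carries coenzyme A into mitochondria, read 2.39 and 2.50, then 1.21 and 1.11. Smaller gaps were found for the lipid droplet gene Plin5, with 0.37 and 0.29 on WT and -0.51 and -0.74 on SPORTS, and for the triglyceride lipase gene Pnpla2, with 2.63 on both WT arrays and 2.07 and 1.77 on SPORTS. None of 21 genes of cholesterol and fatty acid synthesis, 32 of glycolysis and 38 of the respiratory chain and tricarboxylic acid cycle was 2-fold apart. Over all genes the share was 1.92%, at which lists of this size can hold none. The glycolysis list had a median difference from WT of 1.15 on the exercised and -0.17 on the sedentary array.

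Of 8 fat cell markers measured, Lipe among them, 4 lay below WT by any gap and 0 above, beside 22.3% and 21.4% over all genes. Their summed level was 129 and 133 on WT, 134 on the sedentary and 21.9 on the exercised array (each gene's level taken out of log2 before summing). Most of that sum was Car3, a carbonic anhydrase gene that muscle also expresses. Without it the other 7 summed to 22.2 and 27.8 on WT, 20.3 on the sedentary and 10.5 on the exercised array. Adipoq, which encodes adiponectin, read -0.38 and 0.30 on WT, then -3.01 and -0.79. The part of that cell type in the lipid gene values was not tested. In tissue RNA, fewer cells of a type and less RNA per cell cannot be told apart.

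Some genes were well above background on both arrays of 1 genotype and on neither array of the other. With a symbol, 82 genes were so only on the WT arrays and 70 only on the SPORTS arrays. With dim arrays raised to their lowest signal well above background, the genotype means differed at least 2-fold for 21 of the 82 and 16 of the 70. That is a difference of means, and the gap between the nearest arrays can be smaller. For these genes the dim side has only a bound.

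Vegfb, a growth factor gene of the VEGF family, read 2.69 and 2.73 on the WT arrays and -5.47 and -5.89 on the SPORTS arrays, which puts it at least 80.1-fold lower (limma, adjusted p = 0.132, the lowest of all genes). It has 1 probe, so no other probe bears on it. It belongs to a list of VEGF family and receptor genes that also holds other vessel genes, namely Angpt1, Angpt2 and Apln. Of 13 genes of that list measured, 2 were at least 2-fold lower (15.4%, beside 1.28% over all genes). The other was Angpt1, which encodes a ligand of the TIE2 receptor and read -0.38 and -0.41 on WT and -2.67 and -1.44 on SPORTS. Cd300lg, an endothelial receptor gene, read 0.22 and 0.33, then -4.02 and -5.36, and was at least 14.8-fold lower. Of 19 endothelial markers, Cd300lg and Cd36 were at least 2-fold apart (10.5%, beside 1.92% over all genes) and 17 were not.

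Further genes seen on the WT arrays only had smaller bounds. Rhbdl3, a rhomboid-like protease gene, was at least 5.51-fold lower, Gcgr, which encodes the glucagon receptor, at least 4.80-fold, and Crabp1, a retinoic acid binding protein gene, at least 4.65-fold. Wt1, a transcription factor gene, was at least 3.35-fold lower, Klkb1, which encodes plasma kallikrein, at least 3.17-fold, and the chemokine receptor gene Cxcr2 at least 3.06-fold. Klkb1 read -2.07 and -1.82 on WT and -5.66 and -6.03 on SPORTS, with the arrays of each genotype close together. Cxcr2 read -2.56 and -1.45 on WT, more than 2-fold apart within the genotype.

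Genes seen on the SPORTS arrays only included Hes1, a Notch target, which read -5.78 on both WT arrays and -2.02 and -1.63 on SPORTS and was at least 3.47-fold higher (limma, adjusted p = 0.223). Of 12 Notch pathway genes measured it alone was 2-fold apart (8.33%, beside 1.92% over all genes). Lcn2, which encodes the iron-binding lipocalin of neutrophils and inflamed tissue, read -5.80 and -5.79, then -2.19 and -2.0, and was at least 2.88-fold higher. Of 21 glucocorticoid-induced genes it was again the 1 gene 2-fold apart (4.76%, beside 1.92% over all genes). Lyst, a lysosomal trafficking gene, was at least 2.94-fold higher and Oit3 at least 4.20-fold. The olfactory receptor gene Or13p4 read -5.65 and -5.72 on WT and -2.02 and -2.14 on SPORTS. The globin gene Hba-a3 was at least 2.89-fold higher. It has near-identical copies, and another alpha globin gene, Hba-a1, read 7.04 and 7.24 on WT and 6.54 and 6.22 on SPORTS, the other way.

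2 genes in this class rest on the exercised array. Prima1, which anchors acetylcholinesterase, read -3.54 and -3.60 on the WT arrays, then 1.1 in the exercised and -3.53 in the sedentary SPORTS rat. Its sedentary value equalled the WT values to within 0.1, although the scanner's flag put it above background there. Pon3, a paraoxonase gene, read -3.75 and -3.80, then -0.32 and -3.14. Neither had a 2-fold gap between genotypes.

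**Figure D2:**
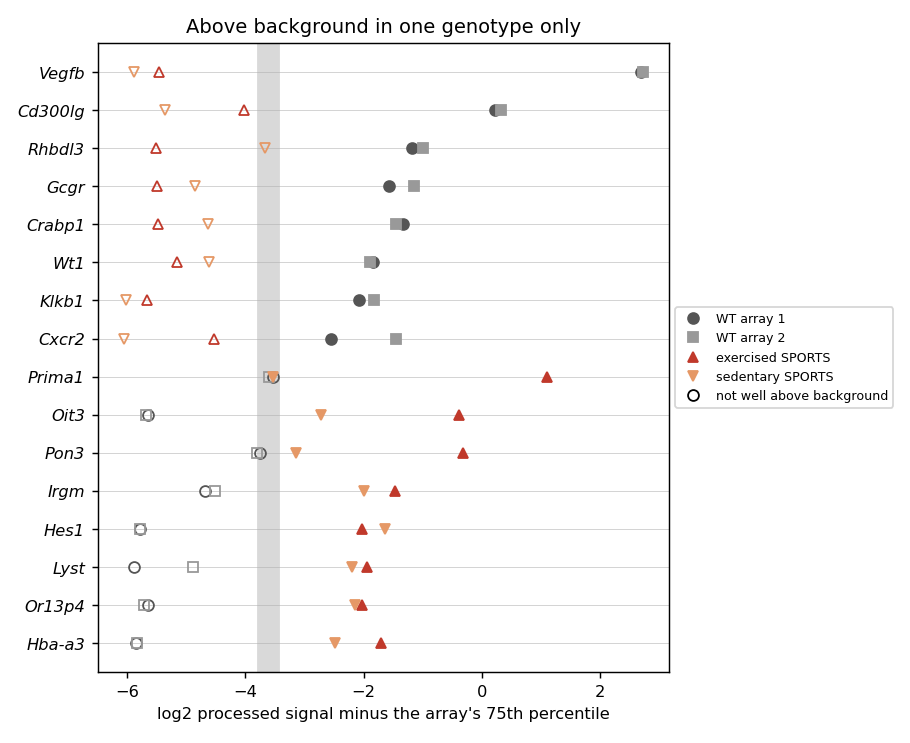
Log2 level relative to each array's 75th percentile (axis) on the WT, exercised SPORTS and sedentary SPORTS arrays, 1 point per array, for genes well above background on both arrays of 1 genotype and on neither of the other. Vegfb stands out with WT values of 2.69 and 2.73 and SPORTS values of -5.47 and -5.89, and the sedentary point of Prima1 lies on its WT points.

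Genes measured on all 4 arrays give differences rather than bounds. There were 110 such genes with a 2-fold gap, 49 above WT and 61 below. Among those with a symbol, the largest gaps above WT, after Bmal1, were in RGD1309362, with -2.46 and -2.49 on WT and 0.44 and 1.39 on SPORTS, and in Ak1. Ak1, the main adenylate kinase of muscle, which rebalances adenine nucleotides, read 4.10 and 4.36 on WT, 8.41 on the exercised and 6.70 on the sedentary array. Its difference was 3.33 ± 0.67 (SE, limma, adjusted p = 0.521). Ak1 was the 1 gene 2-fold apart among 17 of adenylate kinase, creatine kinase and AMP-activated kinase (5.88%, beside 1.92% over all genes). Tnfrsf12a, the receptor for the cytokine TWEAK, read 1.15 and 1.17, then 4.20 and 2.81. Both genes were highest on the exercised array. Selenoi, which makes phosphatidylethanolamine, read -1.50 and -1.27 on WT and 1.03 and 0.77 on SPORTS. Slc41a3, of a magnesium transporter family, read 0.22 and 0.14, then 2.20 and 1.95.

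On the lower side, Tpd52l1, of the tumour protein D52 family of vesicle proteins, read 2.05 on both WT arrays and -0.84 and -1.11 on the SPORTS arrays, a difference of -3.03 ± 0.16 (SE, limma, adjusted p = 0.229). Mcrip1, whose product binds the corepressor CtBP, read 2.86 and 2.93, then -0.43 and 0.15. Prrc1 read 2.76 and 2.82, then 0.74 and 0.72. For Prrc1 the SPORTS arrays were nearly equal. Slc5a3, the inositol transporter gene, read -0.60 and -0.35, then -2.65 and -2.27. Rnf126, a ubiquitin ligase gene, read 4.32 and 4.18, then 1.73 and 2.31. The olfactory receptor gene Or10am5 read 0.46 and 0.34, then -1.93 and -1.82.

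In 33 genes with a symbol, measured on all 4 arrays and 2-fold apart, the SPORTS arrays lay within 0.5 of each other and so did the WT arrays. Of these, 14 were above WT and 19 below. The 10 with the largest differences were Tpd52l1, Retsat, Dgat2, Selenoi, Or10am5, Prrc1, Npas2, Slc5a3, Atxn2l and Slc41a3. Atxn2l, related to ataxin 2, read -0.56 and -0.72 on WT and 1.05 and 1.5 on SPORTS. The likeness of the SPORTS arrays in this set is how it was chosen.

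**Figure D3:**
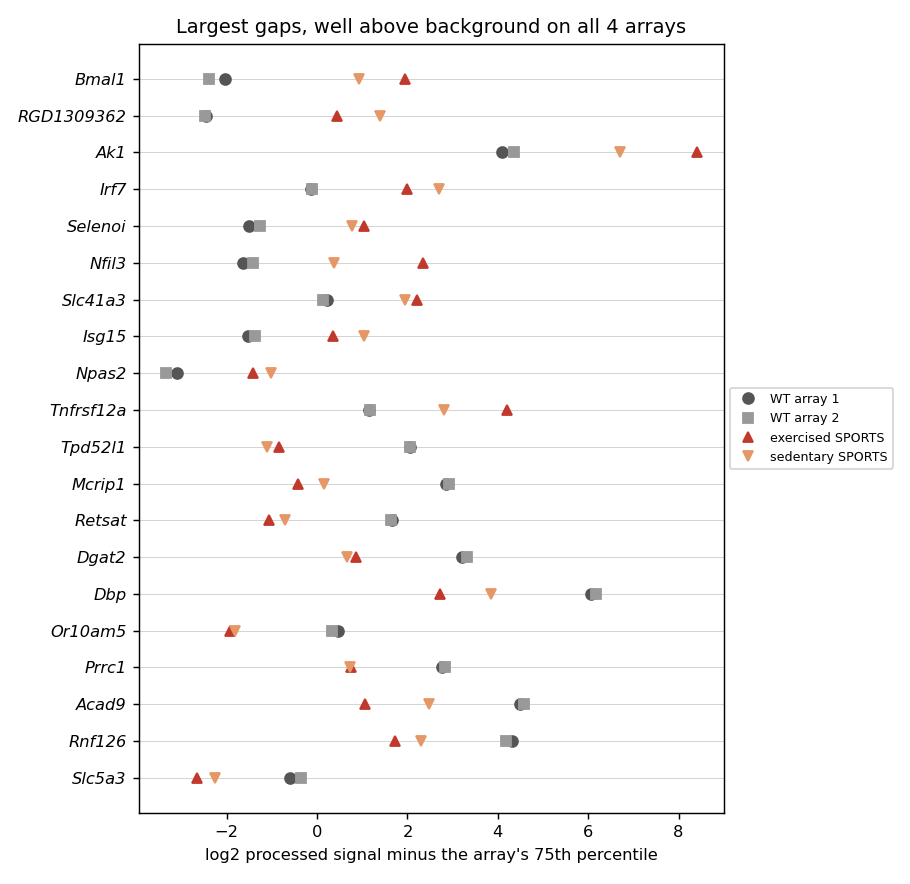
Log2 level relative to each array's 75th percentile (axis) on each of the 4 arrays, 1 point per array, for the 10 genes above and the 10 below WT with the largest gaps among genes above background on all 4 arrays. In Ak1 the exercised point lies at 8.41 and the sedentary one at 6.70, whereas in Prrc1 the SPORTS points lie at 0.74 and 0.72.

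The array carries further probes above background for 22 of the genes with a 2-fold gap, 24 probes in all, and 19 of the 22 carry a symbol. These probes were not used to choose the genes. Of the 24, 17 also had a gap of at least 2-fold on the same side, 4 had a smaller gap on the same side, 1 overlapped and 2 lay on the opposite side. The second probe of Bmal1 read -4.81 and -4.91 on WT and -0.73 and -1.78 on SPORTS, a difference of 3.61 beside 3.65 for the probe used. Both further probes of Dbp differed by -2.85 and -2.70. The second probe of Cd300lg differed by -3.60, that of Mcrip1 by -2.10 and that of Cd36 by -2.06. In 3 genes the probes disagreed. The other probe of Atxn2l differed by -0.54 where the probe used gave 1.91, that of Rnf187 by 0.30 against -1.17, and that of Slc29a4 by -0.09 against -1.57. The direction of those 3 genes is uncertain.

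**Figure D4:**
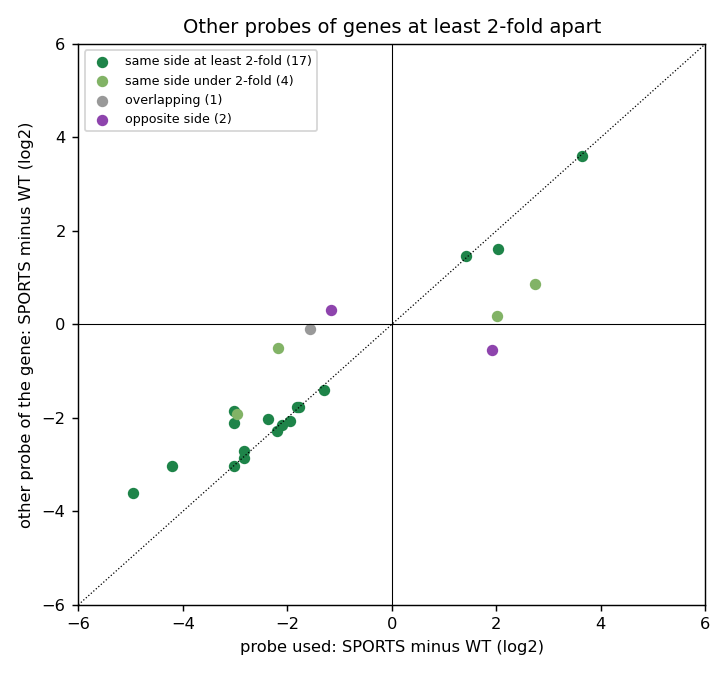
SPORTS minus WT difference of the probe used (horizontal axis) against that of the gene's other probes (vertical axis), both in log2 units, 1 point per other probe for 22 genes. Most points lie in the quadrants of equal sign, 17 of 24 of them with a 2-fold gap, and the points of Atxn2l and Rnf187 lie in those of opposite sign.

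Tendon and matrix genes were lower mainly on the exercised array. Of 13 tendon genes measured, 5 were at least 2-fold below WT on both SPORTS arrays and 1 above, together 46.2% of the list beside 1.92% over all genes. The list's median difference was -2.92 on the exercised and -0.26 on the sedentary array. Fmod, a collagen-binding proteoglycan gene, read 5.99 and 5.87 on WT, 1.72 on the exercised and 4.22 on the sedentary array. Tnmd, the tendon marker tenomodulin, read 1.16 on both WT arrays, then -5.63 and -0.30. Chad, Cilp2 and Kera had the same order, and all of the 5 but Fmod were not above background on the exercised array. The summed level of the 13 genes was 144 and 134 on WT, 28.7 on the exercised and 98.4 on the sedentary array. Col1a1, a chain of type I collagen, read 6.02 and 6.03 on WT, then 3.05 and 4.62. It was the 1 gene 2-fold apart of 26 collagen and matrix genes (3.85%, beside 1.92% over all genes). Fibroblast markers summed to 267 and 261 on WT, 86.5 on the exercised and 227 on the sedentary array. The part of tendon and fibroblasts in these values was not tested. Axin2, a target of Wnt signalling, was at least 1.89-fold lower, and of 18 Wnt and BMP genes 9 lay below WT by any gap and 0 above, beside 22.3% and 21.4% over all genes. Their median difference was -0.78 on the exercised and -0.20 on the sedentary array.

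Nerve and fibre type markers also differed between the SPORTS arrays. Nefh, a neurofilament gene, read -2.43 and -2.32 on WT and -5.74 and -4.85 on SPORTS, at least 2.36-fold lower, and Nefm was at least 1.28-fold lower. The Schwann cell and nerve list summed to 12.1 and 10.9 on WT, 6.93 on the exercised and 17.1 on the sedentary array. The sum was thus below WT on the exercised array and above it on the sedentary one. By any gap 4 of the 12 lay below WT and 0 above, beside 22.3% and 21.4% over all genes. None of 15 fast and 15 slow fibre genes had a 2-fold gap, beside 1.92% over all genes. Such a gap needs both SPORTS arrays on the same side of WT. The fast fibre list summed to 1830 and 1900 on WT, 4470 on the exercised and 796 on the sedentary array. The slow fibre list summed to 2780 and 2730 on WT, 942 on the exercised and 2580 on the sedentary array. The slow fibre list had a median of -2.22 on the exercised and -0.04 on the sedentary array, and the fast fibre list 0.95 and -0.83. The SPORTS arrays thus lay on opposite sides of WT for the median of the fast list. Whether fibre makeup bears on any gene above was not tested.

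Immediate early genes, which respond within minutes to contraction or growth signals, went both ways. Of 26 measured, 2 were at least 2-fold above and 1 below, 11.5% of the list beside 1.92% over all genes. By any gap 10 lay above WT (38.5%, beside 21.4%) and 4 below (15.4%, beside 22.3%). Egr1 read -2.35 and -2.0 on WT and -0.23 and -0.97 on SPORTS. The orphan receptor gene Nr4a3 was at least 1.91-fold higher. Arc lay the other way, with -0.45 and -0.21 on WT and -2.30 and -1.52 on SPORTS.

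Of 16 monoamine and adrenergic genes measured, 7 lay above WT by any gap and 2 below, beside 21.4% and 22.3% over all genes. Maoa, which encodes monoamine oxidase A, read -0.54 on both WT arrays, then 0.23 in the exercised and -0.43 in the sedentary SPORTS rat, so its gap was 0.10. Ddc, the aromatic amino acid decarboxylase gene, read -1.91 and -1.94, then 0.63 and -1.17. Gch1, whose product starts the synthesis of the cofactor tetrahydrobiopterin, was at least 1.84-fold higher.

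Each of the other lists held at most 2 genes at least 2-fold apart. Actg2, a smooth muscle actin gene, read 0.73 and 0.83 on WT and 2.48 and 1.93 on SPORTS, and the 13 smooth muscle and pericyte markers, leaving out Des, which muscle fibres express strongly, summed to 48.6 and 51.3 on WT and 46.1 and 56.8 on SPORTS. Akr1b8, an aldo-keto reductase gene, read 0.18 and 0.06, then -1.47 and -1.32. It was the 1 gene 2-fold apart of 32 xenobiotic and antioxidant genes (3.12%, beside 1.92% over all genes). Gcgr was the 1 of 19 insulin and glucose genes (5.26%). None was 2-fold apart among 15 myogenic, 18 neuromuscular junction, 21 atrophy, 19 calcium handling, 22 unfolded protein response, 18 heat shock, 20 hypoxia and 16 p53 genes. At the share over all genes, lists of this size can hold none. Of 12 macrophage and monocyte markers, 0 had even a small gap, beside 43.7% over all genes. The summed macrophage level was 66.6 and 45.6 on WT, 23.3 on the exercised and 106 on the sedentary array. Of 4 neutrophil markers measured, Lcn2 was higher and Cxcr2 lower, and the list summed to between 0.363 and 0.567 on all 4 arrays.

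**Figure D5:**
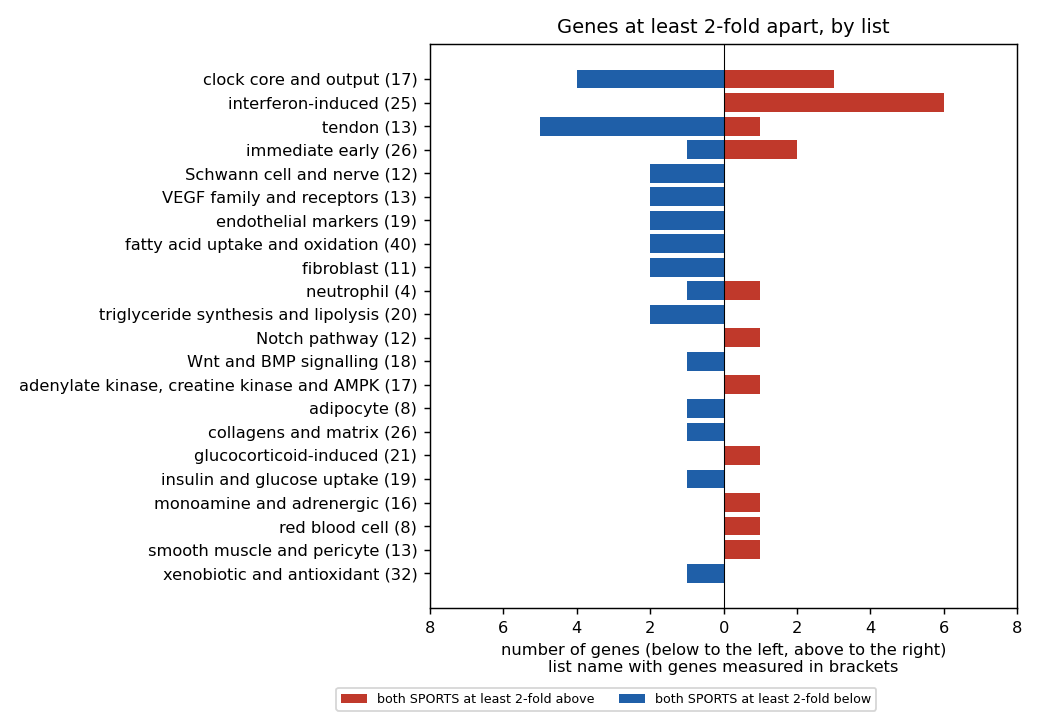
Number of genes per list at least 2-fold above WT (bars to the right) or below WT (bars to the left) on both SPORTS arrays, with the number measured in brackets, for lists with at least 1 such gene. The interferon-induced list has 6 above and 0 below, the clock list 3 above and 4 below, and the tendon list 1 above and 5 below.

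In the order of the RefSeq gene table, 3 pairs of directly neighbouring protein-coding genes were both 2-fold apart in the same direction. Pairs in opposite directions were not counted. They were Gcgr and Mcrip1, Cd36 and Cd36l1, and Abhd1 and Cgref1. All 6 genes lay below WT. The number of such pairs to be expected from all genes was not worked out, so the count is a description. The probe signals of Cd36 and Cd36l1 cannot be told apart, as said above.

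The 2-fold limit cuts through a continuous range. Just inside it were Mrpl18, with 3.46 and 3.50 on WT and 2.46 on both SPORTS arrays, Esm1, with 2.27 and 2.46 on WT and -1.66 and 1.27 on SPORTS, and Rasgrp2. Just outside were Nit2, with 1.70 and 1.69 on WT and 2.70 and 3.05 on SPORTS, Mettl7a and Abcc8.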

How the data were processed

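Each of 4 arrays, all on 1 slide, was hybridised in one colour. Per the submitters' processing notes, the scanner images were read with Agilent Feature Extraction 10.7.1.1. Per the file headers, the intensity used (the processed signal) had its background subtracted within each array. The deposited value table holds log2 values centred on each probe's median. It followed the scanner values with r = 1 and served as an alternative.

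Control spots and outlier flags were left out, spots of a probe were averaged, and log2 of the processed signal minus each array's 75th percentile was taken. Of 30367 probes, 352 were dropped for outlier flags. RefSeq (GRCr8) accessions gave 1 symbol to 59.4% of 30015 probes. Each of 26624 genes or unnamed accessions was represented by its brightest probe on average, and 13326 were well above background on at least 2 arrays. limma 3.58.1 (R 4.3.3) fitted the genotypes, with two-sided p-values and Benjamini-Hochberg adjustment, called below 0.05, after the code was tested on simulated data. Bounds set each dim array at the higher of its own value and its lowest signal well above background. The p-values and standard errors reflect no more than the spread within the 2 pairs of arrays. Between the WT arrays that spread may be technical. Between the SPORTS arrays it holds the difference in exercise too.

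The genes named were the 10 with the largest gaps each way on 4 arrays, the 8 largest bounds each way, the 10 largest differences with like replicates, members of gene lists 2-fold apart with up to 3 others, those nearest the 2-fold limit, the 5 lowest p-values, genes with discordant probes and neighbouring pairs. A few others were chosen after their values were seen. Members and lists were chosen with earlier results of these data known. Alternatives were scaling by the median, quantile normalization, normexp background correction with offset 50, other filters, a floor, the authors' table, the mean of a gene's probes, a variance trend and leaving out each array. A few genes of the lists are not reported here.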

Additional observations from a re-analysis of the deposited data

How the results depend on the processing

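The labels pair no SPORTS array with a WT array, so no paired analysis was made. Genes called by limma, 0 as reported, numbered 1 (Vegfb) with quantile normalization and with normexp, and 0 to 7097 when 1 array was left out. It was 0 without either WT array, 836 without the exercised array and 7097 without the sedentary array, where the spread comes from the WT arrays and the lone SPORTS array is assumed to share it. Genes at least 2-fold apart, 256 as reported, numbered 147 with normexp and 185 with a floor on dim values. They numbered 110 with all 4 arrays above background and 398 with no filter. With 1 array left out they numbered 317 to 2481, being 540 without the exercised and 2481 without the sedentary array. Genes apart by any gap, 5819 as reported, numbered 7184 to 12280 with 1 array left out, being 11621 without the exercised and 12280 without the sedentary array. Scaling by the median shifted the median of all genes by 0.13 and moved the share of higher genes among those apart from 49% to 68.8%, 4077 above and 1848 below. For 28 of 193 genes chosen for naming, the sedentary array alone differed from WT in the direction opposite to the SPORTS mean. For the exercised array alone the number was 2. Many of the 193 were list members chosen for a large mean difference without a 2-fold gap. Such a difference can rest on 1 array, so these counts depend on how the genes were chosen. A gene with a gap keeps its sign whichever array is left out, and many of the 204 genes refitted were chosen for a 2-fold gap. Their low number of sign changes was thus partly fixed by the choice. Of the 204 genes, 5 changed sign. Their differences lay between these values without the exercised and without the sedentary array: -0.11 and 0.33 for Acta1, 0.10 and -3.22 for Car3, -0.27 and 0.48 for Ckm, -0.73 and 0.61 for Nr1d1, and -1.25 and 2.24 for Per3. Ckm also turned with quantile normalization (-0.05), Nr1d1 with scaling by the median (0.06) and without WT array 1, and Per3 with the mean of its probes (-0.45). The median difference of the tendon list was -1.88 and became -0.61 over genes above background on all 4 arrays. Dim probes on 1 genotype give bounds only. The cause of these moves was not tested, beyond fewer arrays or genes.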

Other observations

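Some further genes, chosen after their values were seen, differed at least 2-fold between genotypes without belonging to a list above. Levels are log2 relative to each array's 75th percentile, WT first, then exercised and sedentary SPORTS. Of 26 potassium channel genes measured, identified by their symbols, 4 lay at least 2-fold below WT and 0 above, beside 1.28% and 0.645% over all genes, and by any gap 9 lay below and 6 above. Kcnk2, a two-pore potassium channel gene, read 0.33 and 0.36, then -5.42 and -1.92, and Kcnj13, an inward rectifier gene, -0.18 and 0.04, then -5.24 and -1.38. Kcnh2 read -1.53 and -1.39, then -4.16 and -2.98, and Kcnmb2 read -2.35 and -2.55, then -4.49 and -3.57. In all 4 the exercised array was the lowest and was not above background. The cartilage collagen gene Col2a1 was at least 2.88-fold lower, and its SPORTS arrays read -4.26 and -4.31. Col11a2 read 0.70 and 0.76, then -5.37 and -1.58.

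Single genes of the immune and metal responses were also apart. Cfb, complement factor B, read 1.17 and 1.08, then 2.67 and 3.16. Mt2A, a metallothionein gene, read 2.26 and 1.19, then 3.92 and 3.58, with more than a 2-fold range within WT. The chemokine gene Cxcl9, which interferon gamma induces, lay the other way, reading 0.19 and 0.00 on WT and -1.38 and -1.51 on SPORTS. Among 66 mitochondrial ribosomal protein genes, 1 (Mrpl4) was at least 2-fold higher and 2 (Mrpl18 and Mrpl52) at least 2-fold lower, beside 0.645% and 1.28% over all genes. Idh1, the cytosolic isocitrate dehydrogenase, read 1.04 on both WT arrays and -0.89 and -0.32 on SPORTS. No difference in these paragraphs passed the adjusted threshold of limma.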
